A study of Arabidopsis thaliana with 12 samples.

Results

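The 150 loci of the Arabidopsis thaliana genome whose transcripts stood highest at dusk, relative to dawn and midday, in every genotype studied are described here. For each of 32592 loci, the level at zeitgeber time 15 (ZT15; hours after lights-on) was set against the higher of the levels at ZT0 and ZT6 on the log2(RPKM + 1) scale, where RPKM counts reads per kilobase of a gene model, relative to the size of the library. The smallest of these 4 differences, 1 for each genotype, is called the score, and the members were chosen by it as the 150 loci of highest score. Chloroplast and mitochondrial loci and 7 further loci named in the rule were set aside, of which 1 and 4 would have ranked among the first 150. Because the ZT15 peak chose the members, its height is given as a description only and carries no test. The highest score was 4.15, the tenth 2.15 and the fiftieth 1.04, the median was 0.858, and 57 members had a score of at least 1. At the limit, AT4G13505 and MSI2 were inside at 0.669 and 0.665, and AT2G31040 and AT4G34480 were outside at 0.664 and 0.663.

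Messenger RNA came from rosette leaves of plants 3 weeks old that had not bolted, grown on soil with 16 h of light at 22 C and 8 h of dark at 20 C. The genotypes were the accessions Col (Columbia) and C24, both inbred natural lines, and the F1 hybrids of both crosses, which the labels call ColxC24 and C24xCol. The labels name no transgene or induced mutation in any of the 4, and each was harvested at ZT0, ZT6 and ZT15, the last of these shortly before lights-off. Each of the 12 combinations had 1 library. Replicate error is therefore unknown, no 2 levels at the same time can be tested against each other, and whether plants were pooled is not stated in the labels.

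The plant circadian clock is a network of transcription factors that repress one another in sequence through the day. Dawn-expressed MYB-like factors, CCA1 and LHY, hold down evening genes by binding the evening element, a short sequence in their promoters, and evening genes rise once these repressors decline. Clock output at the end of the day prepares leaves for the night, when transitory starch made in the light is broken down in the chloroplast and exported as sugar.

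Dusk here means the last of the 3 times sampled, and a maximum between ZT6 and ZT15 or in the night would not be seen. The libraries held an estimated 16.6 to 26.5 M reads (M, mega). The 4 leaf markers summed to 36659 to 61823 RPKM in each library, whereas each of 4 flower markers stayed at or below 1.32 RPKM and each of 4 root markers at or below 4.66 RPKM. Of the members, 149 averaged at least 1 RPKM over all libraries and were tested, among 17207 loci in all. AT1G08005, annotated as a protein phosphatase regulatory subunit, was not, with 0 RPKM in each genotype at ZT0 and 1.11, 0.722, 1.5 and 0.979 RPKM in Col, C24, ColxC24 and C24xCol at ZT15. Of the tested members, 11 averaged under 1 RPKM over ZT0 and ZT6 and passed through their ZT15 level.

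Evening elements were most frequent in the promoters of the members of highest score. The element AAAATATCT was found on either strand within 250 bases before the annotated start of 20 of the 148 members with a start in the TAIR10.1 annotation of RefSeq, or 13.5%, against 2.30% of 27720 other promoters of the same length. It stood in 26% of the 50 members of highest score and in 7.14% of the other 98. Promoters are shown for 3 of the members with more than 1 element and, with 1 element each, for the highest-ranked locus and the highest-ranked starch enzyme that carry it. They are written 5′ to 3′ on the strand of the gene, ending at the base before the start, with evening elements of either orientation in capitals. The windows are GRP7 (chr2:9266558-9266807, minus strand), BBX8 (chr5:19563833-19564082, minus strand), MT2A (chr3:2890575-2890824, minus strand), AT4G16146 (chr4:9144584-9144833, minus strand) and ISA3 (chr4:5783659-5783908, plus strand) of TAIR10.1.
GRP7: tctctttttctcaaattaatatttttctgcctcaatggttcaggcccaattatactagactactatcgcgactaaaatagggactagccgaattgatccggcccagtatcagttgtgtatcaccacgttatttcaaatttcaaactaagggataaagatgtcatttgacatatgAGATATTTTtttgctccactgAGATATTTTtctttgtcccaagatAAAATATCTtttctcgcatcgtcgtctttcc
BBX8: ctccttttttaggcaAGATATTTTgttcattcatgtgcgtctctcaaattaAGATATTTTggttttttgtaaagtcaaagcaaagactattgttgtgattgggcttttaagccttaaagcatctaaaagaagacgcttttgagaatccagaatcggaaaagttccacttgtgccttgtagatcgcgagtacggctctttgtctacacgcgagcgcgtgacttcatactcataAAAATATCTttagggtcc
MT2A: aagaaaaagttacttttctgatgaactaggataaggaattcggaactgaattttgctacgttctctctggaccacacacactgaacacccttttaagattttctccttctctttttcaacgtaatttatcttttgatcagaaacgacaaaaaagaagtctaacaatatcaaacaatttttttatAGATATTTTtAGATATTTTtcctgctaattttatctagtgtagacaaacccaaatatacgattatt
AT4G16146: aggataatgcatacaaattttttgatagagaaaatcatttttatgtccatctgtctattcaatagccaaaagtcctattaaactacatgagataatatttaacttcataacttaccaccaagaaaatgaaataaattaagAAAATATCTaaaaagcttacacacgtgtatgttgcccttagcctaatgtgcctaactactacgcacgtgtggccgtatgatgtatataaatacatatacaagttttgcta
ISA3: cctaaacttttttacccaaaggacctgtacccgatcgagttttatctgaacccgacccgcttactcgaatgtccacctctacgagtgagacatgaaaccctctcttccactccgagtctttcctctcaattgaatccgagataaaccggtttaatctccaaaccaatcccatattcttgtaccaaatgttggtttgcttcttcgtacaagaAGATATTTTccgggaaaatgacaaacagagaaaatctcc
GRP7 carried 3 elements, with 22, 46 and 67 bases between element and start, and BBX8 carried 3 with 9, 190 and 226 bases between. MT2A had 2 elements at 47 and 57 bases. The single element of ISA3 lay 30 bases and that of AT4G16146 lay 101 bases before the start. Other promoters with an element were, among others, those of PWD, PGM, THIC, FLS1, OEP6, CCL and AT4G30650. A match is a run of letters and not evidence of binding, and starts in the TAIR9 gene models behind the expression values may differ.

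Shares of the other motifs are given as a description. The CCA1-binding site AAAAATCT, which is not contained in the evening element, was in 8.11% of member promoters and 6.61% of the others. The shares were 6.76 and 6.47% for the G-box CACGTG, 12.2 and 12.3% for the GATA box GATAAG, and 14.2 and 13.7% for site II, GGCCCA. The telo box AAACCCTA and the abscisic acid element ACGTGTC were each in 2.03% of member promoters, against 4.54 and 3.70% of the others. Among the 16779 other promoters of loci averaging at least 1 RPKM the shares were 2.46% for the evening element, 6.90% for the CCA1-binding site, 7.43% for the G-box, 12.7% for the GATA box, 17.8% for site II, 3.72% for the telo box and 4.22% for the abscisic acid element. With this comparison the order turned for the G-box and site II, whose shares were then smaller in members. The G-box was in 12% of the 50 members of highest score and in 4.08% of the other 98. In the nearest 100 bases the evening element was in 9.46% of member promoters and in 0.884% of the others.

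**Figure D1:**
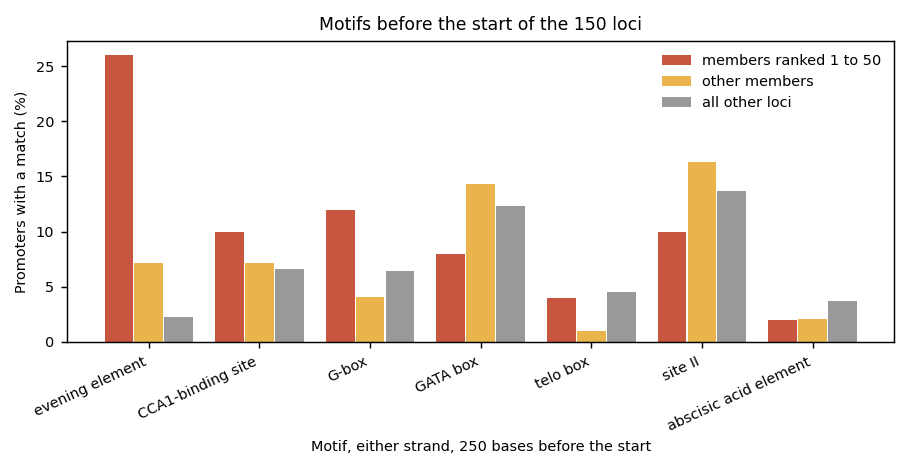
Share of promoters (vertical axis, %) with each of 7 motifs on either strand within 250 bases before the start, for members ranked 1 to 50, the other 98 members and all other loci. The evening element stood in 26, 7.14 and 2.30% of these 3 sets, and every other motif stayed at or below 16.3%.

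In each genotype the median member stood well above its own earlier maximum at ZT15. On the log2(RPKM + 1) scale, the median peak of Col was 1.25, that of C24 1.17, that of ColxC24 1.15 and that of C24xCol 1.16. Together the members made up 0.921 to 1.1% of all RPKM at ZT0, 0.833 to 1.12% at ZT6 and 3.13 to 3.28% at ZT15, depending on the genotype. In leaf RNA of this kind, a change in the number of expressing cells and a change in transcript per cell cannot be told apart. Mean ZT15 levels, which are per length and summed over the gene models of a locus, ran from 1.08 RPKM (AT1G08005) to 5175 RPKM (THI1), with a median of 32.2 RPKM. The sources used here do not say whether reads shared by several models were counted for each, which touches the levels of the 25 members with more than 1 model. With the highest model in place of the sum, an alternative chosen after the data were seen, the mean ZT15 level was 27.7 in place of 74.3 RPKM for JMJD5 and 6.36 in place of 18.6 RPKM for COR27. The peak was nearly the same height in all genotypes for some members, differing by 0.06 on the log2 scale for PWD, and by up to 2.73 for AT3G22235. This range over genotypes was under 0.5 for 58 members and at least 1 for 36.

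**Figure D2:**
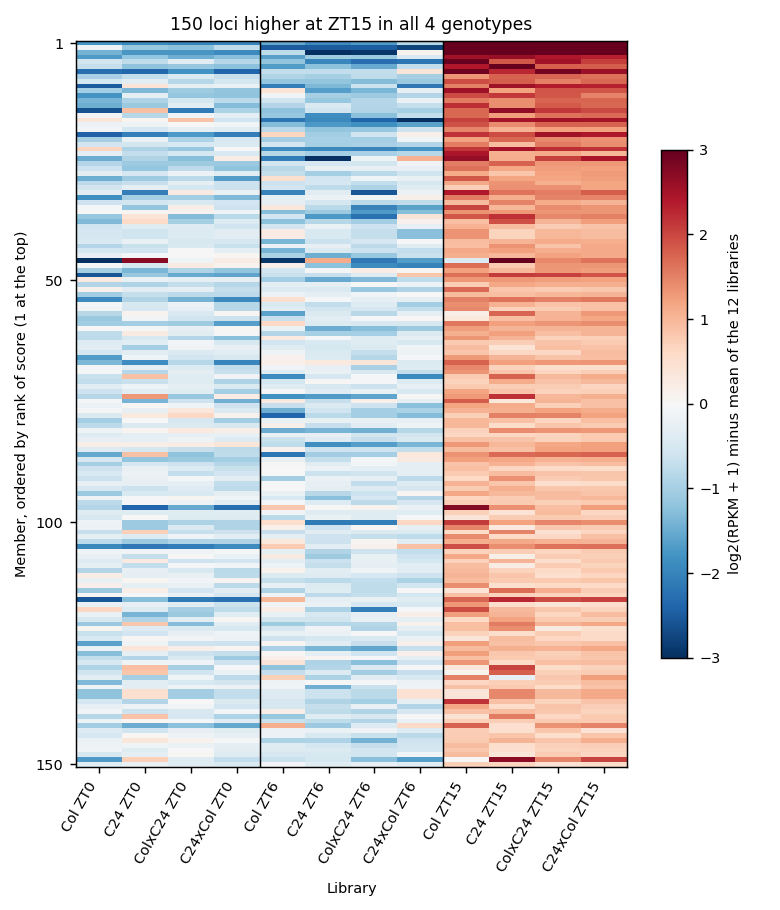
Level of each of the 150 members (rows, ordered by score with rank 1 at the top) in each of the 12 libraries (columns), as log2(RPKM + 1) minus the mean of the member over the 12 libraries. The 4 ZT15 columns are the highest of each genotype in every row, as the choice of members requires, while ZT0 and ZT6 differ from row to row.

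The first ranks included clock proteins and their close outputs. In the values that follow, the order is always Col, C24, ColxC24 and C24xCol. AT1G07050, a protein with a CCT motif as found in CONSTANS-like and pseudo-response regulators, led the set and stood at 0.787, 0.624, 0.582 and 0.554 RPKM at ZT0, at 1.14, 0.683, 0.921 and 2.4 at ZT6 and at 84.2, 52.4, 67.8 and 59.3 at ZT15. JMJD5, a JmjC-domain oxygenase linked to clock period length, stood at 5.34, 2.2, 2.02 and 3.17 RPKM at ZT0, at 0.24, 0.257, 0.268 and 0.0272 at ZT6 and at 61.2, 106, 62.8 and 66.9 at ZT15. PRR3, a pseudo-response regulator of the evening clock, stood at 0.227, 0.784, 0.442 and 0.659 RPKM at ZT0, at 0.29, 0.89, 0.822 and 1.88 at ZT6 and at 21.6, 23.1, 20.1 and 18.9 at ZT15. All 3 were scarce at ZT0 and ZT6 in every genotype, and their ZT15 levels lay above the earlier ones in each, as the choice of members requires. GRP7, an RNA-binding protein that represses its own transcript under clock control, stood at 118, 83, 86.8 and 80.6 RPKM at ZT0, at 59.6, 81.3, 66.4 and 115 at ZT6 and at 1020.2, 2038, 667 and 680.1 at ZT15. At ZT15, C24 had the highest GRP7 level and both hybrids lay below both parents.

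COR27, a cold-induced protein that represses clock genes late in the day, stood at 5.38, 1.14, 0.874 and 3.04 RPKM at ZT0, at 0.108, 0.0764, 0.0361 and 0.2 at ZT6 and at 16.9, 22.2, 18.1 and 17.3 at ZT15. ELF3, the scaffold of the evening complex, stood at 11, 13.6, 12.2 and 14 RPKM at ZT0, at 7.63, 7.01, 7.4 and 6.34 at ZT6 and at 26.2, 23.4, 23.4 and 24.3 at ZT15. COR27 was near 0 at ZT6, whereas ELF3 stayed between 6.34 and 13.98 RPKM at both earlier times. The score of COR27 was 1.49, set by Col, where its ZT0 level was highest, and that of ELF3 was 0.74. AT4G33980, uncharacterized in the annotation, stood at 0.935, 1.23, 0.554 and 0.942 RPKM at ZT0, at 0.262, 0.239, 0.15 and 0.292 at ZT6 and at 9.97, 8.96, 6.99 and 8.22 at ZT15. Of the 25 loci in a list of clock genes and evening outputs, 23 were tested, 5 were members (GRP7, PRR3, AT4G33980, COR27 and ELF3), and 8 had a score above 0, compared with 13.9% of all tested loci. The list median score was -0.81, beside -0.44 over all tested loci, and it held dawn genes such as LHY, with 582, 459, 444 and 489 RPKM at ZT0 and 1.05, 0.88, 1.24 and 1.45 RPKM at ZT15. The 7 loci set aside by the rule are in none of the lists, so the list counts and medians do not cover them. As the score chose the members, its counts and medians over a list are a description only. GRP8, the near relative of GRP7, ranked 175, with 373, 1041, 234 and 248 RPKM at ZT15, the C24 level again the highest. No locus of lists of photoperiodic flowering (17 loci), sucrose and trehalose-6-phosphate (19), photoreceptors and light signalling (22) or aquaporins (12) was a member, and 1 of 14, 3 of 19, 2 of 22 and 0 of 12 tested loci had a score above 0.

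Other regulators among the members were B-box proteins, a sigma factor and growth regulators. BBX8, a B-box zinc finger protein with a CCT domain, averaged 9.72, 3.24 and 25.6 RPKM at ZT0, ZT6 and ZT15 over the 4 genotypes. BBX13, of the same family, averaged 3.48, 4.14 and 12.1 RPKM at these times. SIG4, a sigma factor that directs the plastid RNA polymerase, averaged 21.3, 22.6 and 57.3 RPKM. AS1, a MYB protein of leaf polarity, averaged 24.2, 11.5 and 45.3 RPKM, and MYB111, an activator of flavonol genes, averaged 5.86, 2.55 and 16.2 RPKM. GA3OX2, an enzyme that makes active gibberellin, was nearly absent before dusk and stood at 0.66, 0.2, 0.41 and 0.461 RPKM at ZT0, at 0.141, 0, 0.0354 and 0.118 at ZT6 and at 10.1, 3.25, 3.41 and 3.04 at ZT15. Its ZT15 level in Col exceeded those of the other genotypes, which lay close together. By the words of their annotation, 13 members fell in a class named transcription factor, 8.67% against 4.37% of tested loci. Its words included zinc finger, which took in VIM1 and WLIM1 among others, so the class is not limited to transcription factors. Kinases made up 2.67% against 5.58%, transporters 2% against 3.64%, transferases 6% against 5.30% and hydrolases 8% against 7.69%. Cytochrome P450 proteins made up 0% against 0.581%, and loci without a named function 10% against 9.59%. These classes rest on words as well, so kinases took in PWD, a glucan dikinase, and transporters missed OEP16-1, an envelope channel.

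**Figure D3:**
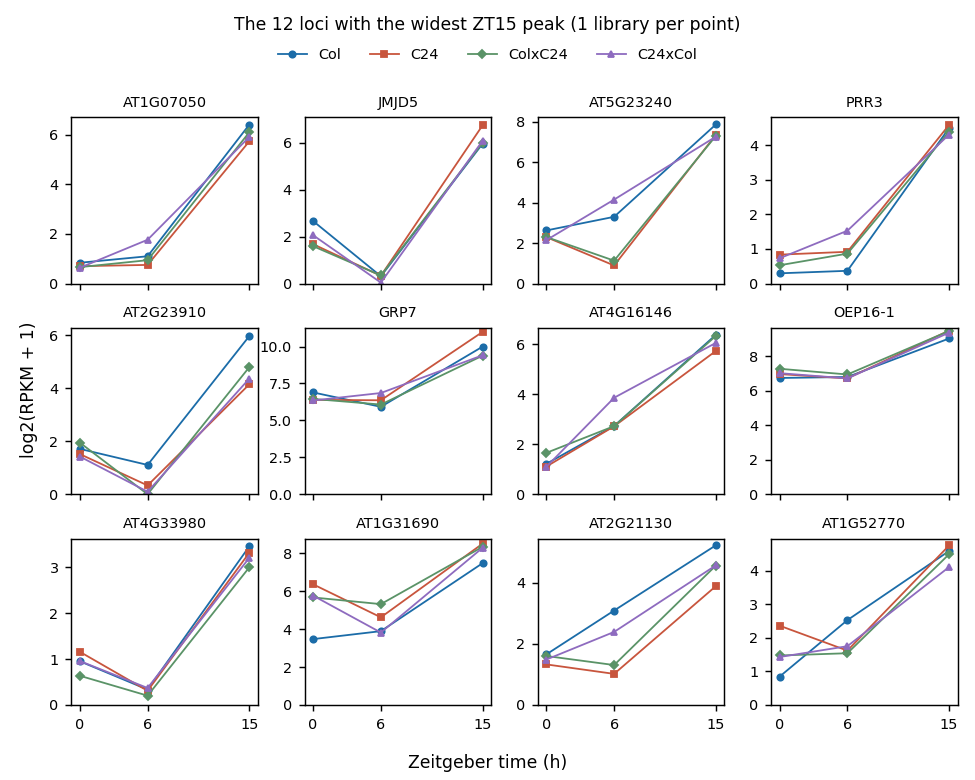
log2(RPKM + 1) of the 12 members of highest score (vertical axis) against zeitgeber time (h) in Col, C24, ColxC24 and C24xCol, 1 library per point. All lines end at their highest point, as the choice of members requires, and GRP7 and JMJD5 in C24 lie above the other genotypes at ZT15.

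Starch enzymes made up 9 members: 5 of 24 listed breakdown loci and 4 of 17 listed synthesis loci. ISA3, the debranching enzyme that removes branches during starch breakdown, stood at 5.98, 8.54, 11.6 and 9.52 RPKM at ZT0, at 11, 7.26, 9.13 and 14.8 at ZT6 and at 52.3, 46.9, 59.8 and 60.3 at ZT15. PWD, a dikinase that phosphorylates glucan chains at the granule surface, stood at 40.3, 30.1, 34.7 and 33.1 RPKM at ZT0, at 24, 18.7, 19 and 27.5 at ZT6 and at 120.3, 89.7, 102 and 101 at ZT15. SEX4, the phosphatase that removes such phosphate again, stood at 9.38, 17.8, 17.2 and 14 RPKM at ZT0, at 29.4, 31.9, 32.9 and 41.1 at ZT6 and at 109, 78.5, 104 and 103 at ZT15. The ZT15 levels of each lay above the earlier ones in every genotype, as the choice of members requires. DPE1, which rearranges short glucans in the chloroplast, averaged 7.61, 17 and 41.9 RPKM at ZT0, ZT6 and ZT15, and PHS2, the cytosolic glucan phosphorylase, averaged 19.2, 109 and 256 RPKM.

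On the synthesis side, SBE2.1, a starch branching enzyme, averaged 34, 24.7 and 94.4 RPKM at ZT0, ZT6 and ZT15. PGM, the plastid phosphoglucomutase that supplies glucose-1-phosphate, averaged 95, 85.7 and 206 RPKM. SS4, a starch synthase of granule initiation, averaged 38.9, 35.9 and 77.4 RPKM, and APL3, a large subunit of ADP-glucose pyrophosphorylase, averaged 3.95, 13.9 and 30.3 RPKM. Of 23 tested breakdown loci 11 had a score above 0, as had 8 of 17 tested synthesis loci, beside 13.9% of all tested loci. Median scores were -0.06 and -0.03, beside -0.44 over all tested loci. The score also chose the members, so these counts and medians are a description only. The lists were chosen with earlier results of these data known. GBSS1 and BAM9, shown for their low scores, were chosen after their values were seen. GBSS1, the granule-bound synthase of amylose, stood at 286, 114, 173 and 173 RPKM at ZT0, at 79.7, 31.7, 42.5 and 83.8 at ZT6 and at 5.56, 4.31, 8.99 and 9.59 at ZT15. BAM9, of the beta-amylase family, stood at 543, 432, 369 and 411 RPKM at ZT0, at 16.9, 12.5, 8.64 and 13.5 at ZT6 and at 9.2, 8.46, 10.3 and 9.65 at ZT15. Among the loci of these lists just outside the set were APL2 (rank 196), BAM2 (rank 232) and MEX1 (rank 250), and GWD1, the dikinase that acts before PWD, ranked 386.

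**Figure D4:**
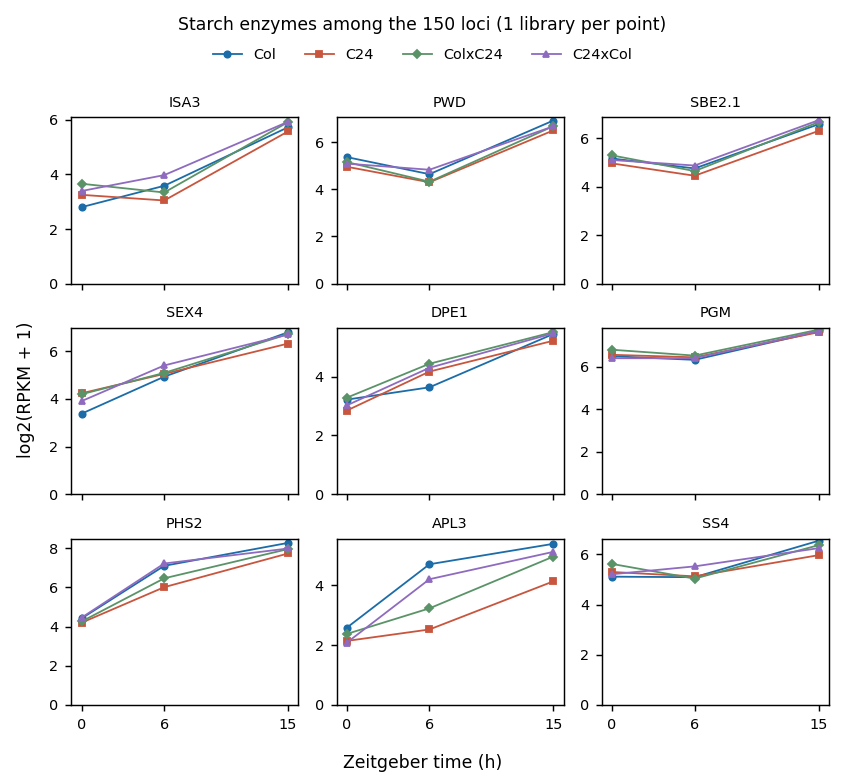
log2(RPKM + 1) of the 9 starch enzymes among the members (vertical axis) against zeitgeber time (h) in the 4 genotypes, 1 library per point. In PWD, SBE2.1 and PGM the lines of all genotypes lie close together, while PHS2, SEX4, DPE1 and APL3 climb already between ZT0 and ZT6.

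The 8 members of highest mean level at ZT15 were THI1, OEP6, AT2G41090, GER3, AT3G22235, GRP7, THIC and MT2A. By the highest gene model of each locus GRP7, at 568 in place of 1102 RPKM, ranked 10. THI1, the thiazole synthase of thiamine synthesis, stood at 2400.5, 1480.1, 2789 and 2568 RPKM at ZT0, at 2329.7, 2071, 2215 and 2729.8 at ZT6 and at 5641, 3976, 5635 and 5446 at ZT15. THIC, which makes the pyrimidine moiety of thiamine, stood at 379, 450.1, 516 and 481 RPKM at ZT0, at 151, 161, 155 and 234 at ZT6 and at 683, 1128, 1086 and 1035 at ZT15. C24 had the lowest THI1 level and the highest THIC level at ZT15. OEP6, a protein of the outer chloroplast envelope, averaged 983, 732 and 2748 RPKM at ZT0, ZT6 and ZT15, and OEP16-1, an envelope channel for amino acids that ranked 8 by score, averaged 128, 109.7 and 648 RPKM. GER3, a germin-like protein of the cell wall, averaged 361, 55.3 and 1601 RPKM, with its low point at ZT6 in every genotype. MT2A, a metallothionein that binds metal ions, stood at 223, 116, 128 and 132 RPKM at ZT0, at 355, 56, 57.8 and 381 at ZT6 and at 1067, 575, 687 and 651 at ZT15. Its level at ZT6 was high in Col and C24xCol and low in C24 and ColxC24. AT2G41090, a calcium-binding EF-hand protein, stood at 211, 1141, 267 and 366 RPKM at ZT0, at 136, 297, 306 and 774 at ZT6 and at 1568, 2013, 2031 and 2096 at ZT15. AT3G22235, a small cysteine-rich protein, stood at 93.7, 143, 108 and 309 RPKM at ZT0, at 61.9, 21.2, 241 and 551 at ZT6 and at 1653, 567, 1097 and 1457 at ZT15. In fold, both spread more widely between genotypes at ZT6 than at ZT15.

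Protein-folding genes were a further group, formed after the members were seen. Chaperones made up 11 members, 7.33% against 1.32% of tested loci by the words of the annotation. AT5G23240, a protein with a DNAJ domain, ranked 3 and stood at 5.15, 3.9, 3.91 and 3.41 RPKM at ZT0, at 8.81, 0.854, 1.19 and 16.7 at ZT6 and at 230.3, 161, 156 and 152 at ZT15. Its ZT6 level was 0.854 and 1.19 RPKM in C24 and ColxC24 and higher in the other genotypes. AT3G09440, an Hsp70, stood at 21.3, 53, 29 and 26.3 RPKM at ZT0, at 259.7, 107, 112 and 99.4 at ZT6 and at 432, 624, 506 and 535 at ZT15. HSP81-2 and HSP81-3, both cytosolic Hsp90 proteins, averaged 50.5, 106 and 303 and 35.8, 101 and 300.2 RPKM at ZT0, ZT6 and ZT15. BIP1 and BIP2, Hsp70 proteins of the endoplasmic reticulum, averaged 78.5, 110.1 and 242 and 55.7, 72.4 and 175 RPKM. The members of these pairs are near-identical in sequence, and how reads with several matches were treated is not given in the sources used here, so the split within a pair is uncertain. Cpn60beta2 and CPN10, parts of chaperonins, averaged 41.9, 126 and 310.5 and 56.2, 95.2 and 196 RPKM. CNX1, a lectin chaperone of the endoplasmic reticulum, averaged 65.8, 96.9 and 204 RPKM.

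Smaller groups were also formed after the members were seen. In flavonol synthesis, FLS1, flavonol synthase, averaged 29.5, 22.2 and 107 RPKM at ZT0, ZT6 and ZT15, and RHM1, which makes UDP-rhamnose, averaged 89.9, 81 and 219 RPKM. In chromatin and DNA replication, the histone genes AT1G09200 and AT3G53730 averaged 76, 96.9 and 206 and 78.6, 96.8 and 175 RPKM. TSO2, a ribonucleotide reductase subunit that makes DNA precursors, averaged 29.5, 36.4 and 81.3 RPKM. PnsL3 and PnsB3, subunits of the chloroplast NADH dehydrogenase-like complex, averaged 81.5, 42.8 and 184 and 137, 117 and 320.3 RPKM. NYC1, a chlorophyll b reductase, averaged 60.4, 54.7 and 196 RPKM. In nutrient transport, AMT1;1, an ammonium transporter, stood at 31.1, 142, 25.3 and 66 RPKM at ZT0, at 15.5, 16.7, 18.2 and 58.6 at ZT6 and at 139, 263, 114 and 121 at ZT15. At ZT0 and ZT15 its level was highest in C24. AT4G13505, a non-coding RNA on the opposite strand next to AMT1;1, was a member too; whether reads were counted by strand is not given in the sources used here.

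Some members were not independent of each other. AT4G34588 had values identical to those of GBF6, as had AT5G64550 and AT5G64552, so the 150 members held 148 distinct profiles. FBA6 and AT2G36470, AT4G33980 and AT4G33985, and AT4G13505 and AMT1;1 were neighbours in the annotation. By chromosome, 28, 25, 34, 24 and 37 members lay on chromosomes 1 to 5, which is 18.7, 16.7, 22.7, 16 and 24.7%, against 25.9, 14.8, 19.7, 14.9 and 22.9% of all loci. The other 2 members had no annotated position.

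Before dusk the members did not share a course. The rule used the higher of the ZT0 and ZT6 levels, so the direction between those times was not chosen, and it was tested with limma in a model with genotype and time as additive terms. With 1 library per group, the spread in this and the following fits is the genotype-by-time residual in place of replicate error. All these fits use the same values that chose the members, and whether that choice changed the residual was not tested. At ZT6 27 of 149 tested members were higher than at ZT0 (12.5% of all tested loci were) and 32 were lower (26.8% of all tested loci were). The median change was -0.12, beside -0.14 over all tested loci. The balance rests on scaling. With median-of-ratios scaling 35 members were higher and 25 lower, while the split over all loci moved from 2156 higher and 4612 lower to 3254 and 3419. With quantile normalization the members split into 34 and 25, and all loci into 3227 and 3400. Of the 59 calls, 47 held when any 1 of the 12 libraries was left out. Of the 11 members that passed the filter on low values through ZT15, 1 was among the 59. In sign, 31 members were higher and 36 lower at ZT6 than at ZT0 in all 4 genotypes, or 20.8 and 24.2%, beside 16.7 and 32.9% of all tested loci.

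Members called between ZT0 and ZT6 included starch enzymes and chaperones in both directions. Changes are log2 values ± SE with limma's adjusted p. PHS2 rose by 2.37 ± 0.17 (adjusted p = 1.7e-05), from 20.4, 17.4, 18.2 and 21 to 137, 63.6, 87.4 and 148 RPKM, and so did APL3 by 1.37 ± 0.27 (adjusted p = 0.0035). SEX4 and DPE1 rose by 1.19 ± 0.19 (adjusted p = 0.0011) and 1.05 ± 0.15 (adjusted p = 8.0e-04). PWD and SBE2.1 fell, with changes of -0.62 ± 0.12 (adjusted p = 0.0026) and -0.45 ± 0.10 (adjusted p = 0.0071). The starch enzymes of the set therefore reached ZT15 by different courses. Over the lists, 10 of 23 tested breakdown loci were higher and 7 lower at ZT6 (median change 0.14), as were 9 and 2 of 17 synthesis loci (median change 0.45), beside a median of -0.14 over all tested loci. AT3G09440 rose by 2.08 ± 0.33 (adjusted p = 0.0011) and Cpn60beta2 by 1.60 ± 0.20 (adjusted p = 3.0e-04). Among all tested loci 12.5% were higher and 26.8% lower. Of the 11 chaperones 6 were higher at ZT6, 1 was lower, AT2G19310 with -0.61 ± 0.18 (adjusted p = 0.0244), and 4 were not called, among them AT5G23240 with 0.03 ± 0.52 (adjusted p = 0.973). AT2G19310 was named after its values were seen. AT4G30650, a low-temperature and salt responsive protein, rose by 1.86 ± 0.30 (adjusted p = 0.0012), and AT4G16146 by 1.74 ± 0.25 (adjusted p = 6.6e-04). AT3G61920 rose from 2.54, 0.25, 1.26 and 0.355 to 10.3, 5.48, 6.01 and 4.66 RPKM, by 1.94 ± 0.21 (adjusted p = 1.7e-04).

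GER3 had the largest called fall, with 388, 312, 546 and 200.0 RPKM at ZT0 and 65.7, 77.5, 56.5 and 21.4 RPKM at ZT6, a change of -2.74 ± 0.30 (adjusted p = 1.7e-04). JMJD5 changed by -1.74 ± 0.24 (adjusted p = 5.4e-04) and COR27 by -1.53 ± 0.30 (adjusted p = 0.0033). ACA8, a calcium pump of the plasma membrane, changed by -1.63 ± 0.16 (adjusted p = 9.4e-05), and THIC by -1.39 ± 0.14 (adjusted p = 1.2e-04). MES18, a methyl esterase, changed by -1.52 ± 0.15 (adjusted p = 8.2e-05), and AT1G17665 by -1.52 ± 0.13 (adjusted p = 5.2e-05). ELF3 changed by -0.76 ± 0.11 (adjusted p = 8.5e-04). In the clock list, 6 of 23 tested loci were higher and 11 lower at ZT6 than at ZT0 (12.5 and 26.8% of all tested loci), with a median of -0.22, beside -0.14 over all tested loci. With median-of-ratios scaling the counts were again 6 and 11, and the median was -0.07. Among the 11, AT4G33980 passed the filter of 1 RPKM through its ZT15 level. Each of the called changes with a value above for ZT6 against ZT0, other than that of AT2G19310, kept its adjusted p under 0.05 when any 1 library was left out. For AT2G19310 the adjusted p by limma was 0.0772 without C24 at ZT0, 0.0688 without ColxC24 at ZT0, 0.0612 without C24xCol at ZT0, 0.0732 without C24 at ZT6 and 0.0660 without ColxC24 at ZT6. When all 3 libraries of ColxC24 were left out, that of SBE2.1 was 0.0665.

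**Figure D5:**
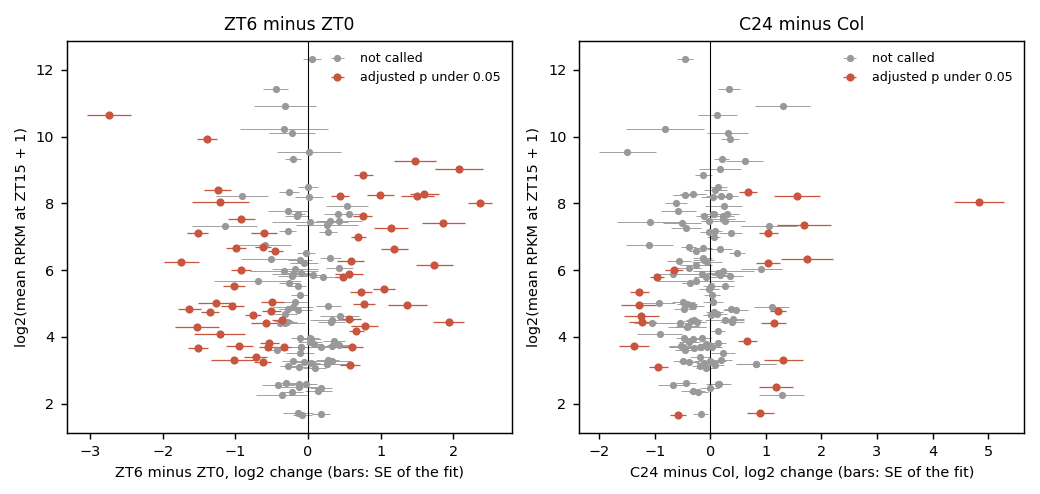
Change of each of the 149 tested members on the log2(RPKM + 1) scale (horizontal axis, bars are the SE of the fit) against its mean level at ZT15 as log2(RPKM + 1), for ZT6 minus ZT0 (left) and C24 minus Col (right). Red points passed an adjusted p of 0.05: 59 members on the left, spread to both sides, and 22 on the right, where AT5G55450 stands apart at 4.84.

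Between the parents 22 members were called, 14.8%, beside 13.6% of all tested loci. In C24, 13 of 149 tested members were higher than in Col over the 3 times (4.46% of all tested loci were) and 9 were lower (9.12% of all tested loci were), by limma. An unadjusted p under 0.05 was found for 51 members, 34.2%, beside 29.8% of all tested loci. The median difference was -0.03, beside -0.12 over all tested loci. Of the 22, AT5G59662 and AT2G32280 passed the filter on low values through their ZT15 level. Each of the 22 had the same sign at all 3 times. With median-of-ratios scaling the split over all loci moved from 767 higher and 1570 lower to 1072 and 1049, and that of the members from 13 and 9 to 16 and 8. With quantile normalization all loci split into 1161 and 968 and the members into 16 and 9. The counts rest on single libraries. The higher count of 13 became 4 without Col at ZT0, 5 without C24 at ZT0, 7 without ColxC24 at ZT0, Col at ZT6 or ColxC24 at ZT15, and 3 without Col or C24 at ZT15. The lower count of 9 became 5 without Col at ZT6 or C24 at ZT15 and 4 without Col at ZT15. Without all 4 libraries of ZT15, 2 were higher and 0 lower, and without ZT0 and ZT6 3 and 22 were higher. Without the filter on low values 7 were higher. Of the 22 calls, 6 held whichever library was left out, those of AT5G55450, SIB2, MES18, RPL3B, AT3G18420 and AT2G25270.

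AT5G55450, annotated as a lipid-transfer protein of the bifunctional inhibitor family, differed most and stood at 3.3, 339, 46.4 and 59.5 RPKM at ZT0, at 5.87, 111, 10.8 and 15.2 at ZT6 and at 37.9, 707, 141 and 159.5 at ZT15. C24 was the highest and Col the lowest genotype at each time, and C24 exceeded Col by 4.84 ± 0.45 (adjusted p = 1.0e-04) on the log2 scale. SIB2, a protein with a VQ motif known to bind a sigma factor and WRKY proteins in defence, stood at 5.85, 12, 7.88 and 11.5 RPKM at ZT0, at 3.01, 8.03, 5.83 and 8.92 at ZT6 and at 12.8, 39.4, 23.8 and 28.9 at ZT15. C24 exceeded Col at each time, by 1.21 ± 0.14 (adjusted p = 5.7e-04), and the hybrids lay between the parents at ZT15. MES18 exceeded its Col level in C24 by 1.04 ± 0.17 (adjusted p = 0.0039). AT1G31690, a copper amine oxidase that ranked 10 by score, was higher in C24 by 1.55 ± 0.41 (adjusted p = 0.0364), but its adjusted p was 0.101 without Col at ZT0, 0.117 without C24 at ZT0, 0.0569 without ColxC24 at ZT0, 0.0616 without Col at ZT15, 0.0964 without C24 at ZT15, 0.0516 without ColxC24 at ZT15 and 0.0521 without C24xCol at ZT15. Without all libraries of ZT15 the adjusted p of MES18 was 0.0614 and that of AT1G31690 0.186. AT4G13505, EP1 and AT1G17744 were also higher in C24, by 1.75 ± 0.47 (adjusted p = 0.0385), 1.68 ± 0.49 (adjusted p = 0.05) and 1.31 ± 0.35 (adjusted p = 0.0383), and these calls were lost in 8, 11 and 7 of the 12 omissions of 1 library. These 3 calls and that of AT1G31690 were also lost without ZT0, without ZT15 and with no filter on low values.

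Among members lower in C24, RPL3B, a ribosomal protein L3, stood at 17.4, 6.15, 11.3 and 5.9 RPKM at ZT0, at 21.5, 10.5, 19.9 and 14.4 at ZT6 and at 65.1, 22.4, 36.9 and 33.4 at ZT15. Col was the highest genotype at each time and the difference was -1.28 ± 0.18 (adjusted p = 0.0014). AT3G18420, of the prenylyltransferase superfamily, differed by -0.96 ± 0.13 (adjusted p = 0.0014). AT5G41460, a putative glycosyltransferase, stood at 18.3, 4.73, 11 and 15.2 RPKM at ZT15 and differed by -1.37 ± 0.27 (adjusted p = 0.0102); its adjusted p was 0.0585 without C24 at ZT15. APL3 stood at 4.99, 3.41, 4.18 and 3.24 RPKM at ZT0, at 25, 4.75, 8.38 and 17.4 at ZT6 and at 40.8, 16.5, 30.1 and 33.7 at ZT15. C24 lay below Col at each time, with a difference of -1.29 ± 0.31 (adjusted p = 0.0252). Its adjusted p was 0.0954 without Col at ZT6, 0.0655 without C24 at ZT6, 0.0652 without Col at ZT15 and 0.103 without C24 at ZT15. Without all libraries of ZT15 the adjusted p of RPL3B was 0.0591, that of AT3G18420 0.0576, that of AT5G41460 0.126 and that of APL3 0.226. AT2G21130, a cyclophilin that ranked 11 by score, and AT3G61920 were also lower in C24, with differences of -1.24 ± 0.31 (adjusted p = 0.0287) and -1.23 ± 0.25 (adjusted p = 0.0114). The first call was lost in 4 of the 12 omissions of 1 library and the other without Col at ZT15 (adjusted p = 0.0571). For AT2G21130 the adjusted p by limma was 0.0511 without ZT6, 0.260 without ZT15 and 0.0568 with no filter on low values. For AT3G61920 it was 0.0802 without ZT0 and 0.0693 without ZT15, and for APL3 it was 0.0544 without ZT6. In the starch synthesis list 4 of 17 tested loci were lower in C24 and 0 higher, with a median of -0.29, and in the breakdown list 1 was lower and 1 higher of 23, with a median of -0.32. No tested locus of the clock list was called between the parents by limma, and the calls in the other lists were 1 higher and 3 lower of 14 for photoperiodic flowering, 0 and 4 of 19 for sucrose and trehalose-6-phosphate, 0 and 2 of 22 for photoreceptors, and 0 and 5 of 12 for aquaporins. Of all tested loci 4.46% were higher and 9.12% lower in C24, with a median of -0.12. With median-of-ratios scaling the counts of loci lower in C24 became 1 of 17 for starch synthesis, 3 of 19 for sucrose and trehalose-6-phosphate, 1 of 22 for photoreceptors and 1 of 12 for aquaporins.

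At single times the parental difference went different ways. C24 stood at least 1.5-fold above Col, on RPKM + 1, for 37 members at ZT0, 15 at ZT6 and 24 at ZT15. These were 24.8, 10.1 and 16.1% of tested members, beside 13, 7.06 and 9.5% of all tested loci. Col stood at least 1.5-fold above C24 for 15, 37 and 32 members at these times. That was 10.1, 24.8 and 21.5% of tested members, beside 12.7, 19.6 and 18.2% of all tested loci. Among members the count was larger on the C24 side at ZT0 and on the Col side at ZT6 and ZT15. All tested loci leaned to Col at ZT6 and ZT15 too, and were nearly even at ZT0. These are counts of single libraries without a test. AMT1;1, AT2G41090 and EP1 were among those high in C24 at ZT0. EP1, a receptor-kinase-related protein, stood at 4.93, 66.7, 7.43 and 18 RPKM at ZT0, at 14.8, 22.9, 18.4 and 17.1 at ZT6 and at 119.7, 231, 158 and 143 at ZT15.

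No member was called between the reciprocal hybrids. By limma 0 of 149 members differed between C24xCol and ColxC24 in either direction (0% of all tested loci), and 8 members had an unadjusted p under 0.05, 5.37%, beside 4.48% of all tested loci. The median difference was 0.04, beside 0.08 over all tested loci. Single libraries did differ. AT5G23240 at ZT6, for example, stood at 1.19 RPKM in ColxC24 and 16.7 RPKM in C24xCol, and MT2A at 57.8 and 381 RPKM, neither of which can be set against replicate error.

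Against the mid-parent, the mean of both parents' RPKM at each time, 1 of 149 members was lower in the hybrids by limma (0.0465% of all tested loci were) and 0 were higher (0% of all tested loci), while 23 members had an unadjusted p under 0.05, 15.4%, beside 12.8% of all tested loci. The median departure was -0.09 for members and for all tested loci. The 1 called was AT5G55450, with a departure of -1.70 ± 0.15 (adjusted p = 0.0328). Both hybrids stood nearer to Col than to the linear mean, at 141 and 159.5 RPKM at ZT15 between 37.9 in Col and 707 in C24. With the mid-parent taken on the log2 scale the departure was -0.22 (adjusted p = 0.864), so the call depends on the scale. Its adjusted p was also 0.409 without Col at ZT0, 0.409 without C24 at ZT0, 0.15 without ColxC24 at ZT0, 0.106 without C24xCol at ZT0, 0.0902 without ColxC24 at ZT6, 0.24 without Col at ZT15, 0.24 without C24 at ZT15, 0.065 without ColxC24 at ZT15 and 0.139 without C24xCol at ZT15. Leaving out a parental library drops the mid-parent of that time.

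Both hybrids stood outside the range of the parents by at least 1.5-fold, on RPKM + 1, at 4 members. At ZT6, 1 member had both hybrids above both parents, and 3, also at ZT6, had both below, which is 0.671 and 2.01% of tested members. At ZT0 and ZT15 there were 0 of either kind by this gap. Smaller gaps were not counted, such as that of GRP7 at ZT15, where both hybrids lay below both parents. Over all tested loci the shares at ZT0, ZT6 and ZT15 were 0.0523, 0.134 and 0.174% above and 0.331, 0.715 and 0.163% below. The 1 above at ZT6 was AT3G22235, with 61.9, 21.2, 241 and 551 RPKM. FLS1 at ZT6 stood at 47.8, 21, 8.62 and 11.5 RPKM and MYB111, which activates it, at 6.7, 1.92, 0.879 and 0.683 RPKM, so both flavonol genes were lower in both hybrids than in either parent in these single libraries. AT4G13505 was the other, with 13.1, 14.6, 8.36 and 6.16 RPKM. At ZT15 FLS1 stood at 155, 75.5, 101 and 94.9 RPKM and MYB111 at 21.2, 10.8, 16.4 and 16.2 RPKM, and the hybrids lay between the parents for both. Where the parents stood at least 1.5-fold apart, both hybrids were nearer to C24 for 15 of 52 members at ZT0, 27 of 52 at ZT6 and 29 of 56 at ZT15, or 28.8, 51.9 and 51.8%, beside 29.1, 40.5 and 42.6% of all such loci. They were nearer to Col for 22, 4 and 22 members, beside 44.6, 17.4 and 35.6% of all such loci.

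Most loci chosen from 3 genotypes were also highest at ZT15 in the genotype left out. When 150 loci were taken from 3 genotypes by the same rule, 140 of them stood higher at ZT15 than at both other times in Col when it was left out. The counts were 136 for C24, 145 for ColxC24 and 135 for C24xCol. Of all tested loci 37.2, 28, 46.6 and 36.4% did so in these genotypes. These loci were not chosen for a peak in the other 3 genotypes, so their shares are not a matched comparison. The median peak in the genotype left out was 1.13, 1.03, 1.05 and 1.1 on the log2 scale, and 115, 102, 124 and 108 of the loci were members of the set of 4 genotypes. The hybrids carry the alleles of both parents, so the genotypes are not independent of one another. The same 12 libraries were used throughout, so whether the peak would recur in another harvest was not tested.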

How the data were processed

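Leaf mRNA of 4 genotypes at 3 times was sequenced with reads of 84 bp, per the labels. The deposited values are RPKM made by the authors, per the file headers, for 38710 gene models of TAIR 9, per the submitters' processing notes. Aligner, counter, strand use and the handling of multiply matching reads were not given in the sources used here. A loss of C24 reads that differ from the Col reference was not tested.

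RPKM was summed over the models of each locus, and 31774 of 32592 loci were matched to the TAIR 10.1 annotation of RefSeq. Loci averaging at least 1 RPKM, 17207 in number, entered the tests, which used log2(RPKM + 1) and limma 3.58.1 under R 4.3.3 (two-sided, mean-variance trend, Benjamini-Hochberg adjustment over all loci tested, threshold 0.05). A change on this scale understates that of low loci. The additive fit has 6 residual degrees of freedom and the mid-parent fit, over 9 columns, has 4. Depth was estimated from low values, of which 33.3 to 38.3% lay within 1% of whole reads, too few to recover counts. The fits were tested on simulated data with noise of the size of the additive residual, which cannot show the true replicate error. Only planted changes were checked, so the rate of false calls was not measured. Promoters of 250 bases were read from the TAIR 10.1 genome, and 1 of them is not reported here.

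The members and lists were chosen with earlier results of these data known. Named loci are the 12 of highest score, the 8 of highest mean RPKM at ZT15, members in a list, up to 6 called members in each direction of a comparison, those at the limit and those with most evening elements. Values of any other member named were seen before it was chosen. Other pseudocounts, scalings and filters and the omission of each library, time and genotype were tried.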

Additional observations from a re-analysis of the deposited data

Results flagged for a closer look

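AT3G22235, a small cysteine-rich protein, stood lower at ZT6 than at ZT0 in both parents and higher in both hybrids. On the log2(RPKM + 1) scale the change was -0.59 in Col and -2.70 in C24, and 1.14 in ColxC24 and 0.83 in C24xCol. The mean change of the parents minus that of the hybrids was -2.63. With 1 library per genotype and time, this difference was not tested. Its peak also varied most between genotypes of all 150 members, by 2.73 on the log2 scale.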

How the results depend on the processing

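No paired analysis was possible because the labels give no replicate numbers to pair by, while genotype and time were both terms of the additive fit. Of the 150 members, 128 were kept with a pseudocount of 0.1, 134 with median-of-ratios scaling, 127 with quantile normalization, and 102 to 124 without 1 genotype. For C24 against Col, the 13 members higher in C24 became 7 with no filter on low values, 3 without ZT0, 22 without ZT6 and 2 without ZT15, and the 9 lower became 0 without ZT15. Without 1 library these counts lay between 3 and 18 and between 4 and 13, and those for ZT6 against ZT0 between 24 and 30 higher and between 25 and 34 lower. The 1 member below the mid-parent became 0 with no filter, with the mid-parent on the log2 scale, without ZT0 and without ZT15, and lay between 0 and 1 without 1 library. The cause of these shifts was not tested. No member was called between reciprocal hybrids under any alternative that was run. For the named members, no called change was reversed in direction by an alternative. Across the alternatives, 775 values kept their side of the threshold, 110 lost the call and 19 gained one. The signs of changes that were not called are not covered by this. Precision is limited by 1 library per group and, for members near 1 RPKM, by depth.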

Other observations

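Choosing 150 loci by the same rule over 3 genotypes gave 44 cases in which the locus was not highest at ZT15 in the genotype left out, and 5 of those are named here after their values were seen. All values are RPKM at ZT0, ZT6 and ZT15. ACD6, an ankyrin protein that regulates defence and salicylic acid, had C24 levels of 438, 20.8 and 404 and Col levels of 43.1, 39.1 and 571. WRKY70, a transcription factor of salicylic acid signalling, had C24 levels of 343, 17.6 and 250.2 and Col levels of 14.9, 12.6 and 82.1. C24 thus held both transcripts high at dawn as well as at dusk, with a low between. For ACD6 the ColxC24 levels were 55.3, 26.4 and 447 and the C24xCol levels 167, 120.5 and 520.0.

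PR5, a pathogenesis-related protein, was highest at ZT6 in Col, with levels of 12.8, 74.6 and 57.2, and highest at ZT15 in C24, with levels of 257, 121 and 477. COR413IM1, a cold-regulated protein of the inner chloroplast envelope, followed the same courses, with Col levels of 15.4, 75.4 and 20.4 and C24 levels of 3.1, 2.1 and 9.17. AT5G10760 was highest at ZT6 in C24xCol, with levels of 24.8, 229.6 and 50.3, whereas the ColxC24 levels were 17.7, 7.19 and 45.5. Each level comes from a single library, and none of these differences between genotypes was tested.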
